A study of Mus musculus with 16 samples.

Results

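The oocyte Fbxw cluster is a run of related genes on mouse chromosome 9, chr9:109139454-109702700 in GRCm38, all read from the minus strand. The 10 genes described here, Fbxw14, Fbxw15, Fbxw16, Fbxw18, Fbxw19, Fbxw20, Fbxw21, Fbxw22, Fbxw24 and Fbxw28, were taken by name from the 25965 genes of the deposited expression table, by a rule that uses no measured value but was set with earlier results of these data known. Expression was measured by strand-specific total RNA-seq in growing oocytes sorted by diameter into classes of 10–30 µm, 40–45 µm, 50–55 µm and 60–65 µm, with 2 libraries (A and B) per class, and in GV oocytes, the fully grown oocytes that still hold an intact nucleus, as 1 library. DNA methylation was measured at CpGs by PBAT, which samples the whole genome, in 1 library of 60–65 µm oocytes, and by RRBS, which samples fragments cut at CCGG sites, in 2 libraries each of the 3 classes from 40–45 µm upwards. All oocytes came from Wild-type C57BL/6 mice, named C57BL/6Babr in the study's methods. Mice of post-natal days 5–7, 7–12, 9–14 and 13–16 gave the 4 size classes in that order and mice of day 20 gave the GV oocytes. The study's methods give these ages by oocyte size and do not set RNA and methylation libraries apart. Its results name a range of days that ends later for the oocytes used for methylation. Diameter and the age of the mice cannot be told apart in either kind of data. The sources do not state whether libraries A and B came from separate groups of mice, and p-values measure only the spread between these libraries.

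F-box proteins are the subunits of SCF ubiquitin ligases that pick the protein to be marked. They are held by the adaptor Skp1, which sits on the scaffold Cul1 together with the RING subunit Rbx1, and the proteins of the Fbxw class carry WD40 repeats with which they grip their target. The chromosome 9 genes form an expanded rodent branch of this class that is known for expression in the oocyte. Fbxw15 is known as a gene expressed selectively in oocytes of the ovary, and the product of Fbxw24 has been linked to meiotic prophase in females. Oocyte DNA gains its methylation during growth, chiefly over transcribed gene bodies, while active starts usually stay free of it.

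The coding sequences of the 10 members were close copies of each other. Their lengths lay between 1392 and 1407 bases, and the identity of aligned bases over the 45 pairs ran from 79.5% for Fbxw24 and Fbxw28 to 99.1% for Fbxw14 and Fbxw28, with a median of 84.4%. The next closest pairs were Fbxw14 with Fbxw22 at 92.7% and Fbxw22 with Fbxw28 at 92.3%. This sets how well reads can be told apart. The reads were 100 bases long and sequenced in pairs, and the authors kept 1 alignment per read. Of the 100-base windows in the transcripts, 39.2% for Fbxw14 and 42.3% for Fbxw28 were shared between these neighbours. A window stands for a single read, and a mate outside the shared stretch can place such a read, so the part of ambiguous pairs may be below these shares and was not measured. The split of reads between them is uncertain, and the sum of their reads is the safer quantity. The share was 6.42% for Fbxw15, of which 4.41% was with Gm42756, and 6.45% for Fbxw16, all with Gm42494, both being annotated genes that overlap them on the opposite strand. The libraries keep strand, but whether strand was used in counting is not given in the sources used here. In the other members at most 1.84% of windows were shared, and in Fbxw22 and Fbxw24 the number was 0.

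The sequence before the starts was also shared. RefSeq promoters, here 250 bases before to 50 after the annotated start in GRCm38.p6, were matched for 9 of the 10 members, with Fbxw22 the one without an entry. Over the 36 pairs 84.9% to 97.7% of aligned bases were identical, with a median of 90.9%. The promoters of the member with the highest level (Fbxw24), of the member with the largest fold rise (Fbxw19), of the pair with near-identical transcripts (Fbxw14 and Fbxw28) and of Fbxw20, which lacks one of the shared motifs, are printed 5′ to 3′ along the gene. They lie on the minus strand at chr9:109626010-109626309, chr9:109495805-109496104, chr9:109287627-109287926, chr9:109339610-109339909 and chr9:109234705-109235004. Capitals mark CAGCTG, an E-box, and TTTAAA, a variant of the TATA box. Both motifs were picked after these sequences had been read.
Fbxw24: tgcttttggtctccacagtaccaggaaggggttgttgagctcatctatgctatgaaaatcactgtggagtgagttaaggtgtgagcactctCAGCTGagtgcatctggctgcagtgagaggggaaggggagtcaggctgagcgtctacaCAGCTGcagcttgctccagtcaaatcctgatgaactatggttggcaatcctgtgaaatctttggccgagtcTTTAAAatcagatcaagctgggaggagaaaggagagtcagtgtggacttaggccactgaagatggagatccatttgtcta
Fbxw19: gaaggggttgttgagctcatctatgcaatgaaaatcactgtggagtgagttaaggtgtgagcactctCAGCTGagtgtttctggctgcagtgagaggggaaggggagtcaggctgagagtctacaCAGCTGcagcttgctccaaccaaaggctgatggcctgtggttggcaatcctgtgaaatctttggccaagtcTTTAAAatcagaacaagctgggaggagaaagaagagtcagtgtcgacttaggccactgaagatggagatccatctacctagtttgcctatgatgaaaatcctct
Fbxw14: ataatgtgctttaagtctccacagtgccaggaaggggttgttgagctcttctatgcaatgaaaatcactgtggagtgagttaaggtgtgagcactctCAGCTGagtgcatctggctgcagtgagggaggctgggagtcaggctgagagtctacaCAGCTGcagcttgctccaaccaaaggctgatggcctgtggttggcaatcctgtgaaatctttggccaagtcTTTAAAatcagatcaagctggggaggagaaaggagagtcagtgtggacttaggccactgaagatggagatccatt
Fbxw28: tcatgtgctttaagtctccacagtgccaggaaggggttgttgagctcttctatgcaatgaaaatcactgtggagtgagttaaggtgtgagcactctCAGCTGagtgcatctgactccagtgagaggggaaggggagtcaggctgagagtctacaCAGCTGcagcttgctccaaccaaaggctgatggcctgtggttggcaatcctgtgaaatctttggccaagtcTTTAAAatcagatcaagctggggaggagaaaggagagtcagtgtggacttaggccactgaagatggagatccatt
Fbxw20: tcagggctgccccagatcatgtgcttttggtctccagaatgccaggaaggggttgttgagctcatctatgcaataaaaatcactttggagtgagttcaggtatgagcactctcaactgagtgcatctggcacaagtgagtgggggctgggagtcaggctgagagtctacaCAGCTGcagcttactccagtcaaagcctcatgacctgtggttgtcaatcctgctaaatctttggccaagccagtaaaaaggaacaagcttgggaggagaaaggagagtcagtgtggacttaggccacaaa

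CAGCTG was found in 9 of 9 member promoters against 16.3% of all 32851 RefSeq promoters, and TTTAAA in 8 of 9 against 13.2%. In 8 promoters CAGCTG occurred at 2 places, and in each of these TTTAAA began 71 bases after the beginning of the copy nearer to the start. The promoter of Fbxw20 had 1 CAGCTG and no TTTAAA. Each CAGCTG also counts as a general E-box (CANNTG), which was present in 9 of 9 members and in 72.3% of all promoters. TAATTG was in 0 of 9 members against 8.0% of all promoters, and TAATTA in 0 against 5.29%. TATAAA, the common TATA box, was in 0 of 9 against 13.6%, as was CGCGC against 29.7%. Both strands were searched. The promoters were poor in CpG, with 0 to 4 CpGs in 300 bases against a median of 7 over all promoters, and 7 of 9 had at most 2, as did 23.3% of all. Since the copies are related, their motifs are not independent of each other, and a match is a string of letters, not a bound site.

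All members were expressed in every library. Levels are given as RPKM, in which reads are normalised for exon length and library total, so that genes can be compared. The totals behind the values, recovered from the steps of the low values, were about 99369453 to 198298124 reads per library (98.5% to 100% of the values of single-exon genes came out within 0.02 of a whole read), and the members rested on 1821 (Fbxw22, 10–30 µm A) to 86590 reads (Fbxw24, 40–45 µm B). Counting error, averaged over the 2 libraries of a class, came to between 0.353% and 2.14% of a member's level. The spread between libraries A and B was larger than that in 37 of the 40 combinations of member and class, the exceptions being Fbxw16 and Fbxw22 at 60–65 µm and Fbxw18 at 10–30 µm. Of the markers used to check the cells, the 10 oocyte genes summed to 2492 to 3743 RPKM per library. By class this was 3156–3346 at 10–30 µm, 3200–3743 at 40–45 µm, 3108–3206 at 50–55 µm, 2700–2849 at 60–65 µm and 2492 in GV oocytes. This sum was thus lower at 60–65 than at 10–30 µm, unlike the members. The 6 granulosa cell genes summed to 0.542–0.594 RPKM at 10–30 µm, 0.612–0.770 at 40–45 µm, 1.35–1.66 at 50–55 µm, 2.10–2.41 at 60–65 µm and 3.13 in GV oocytes. Those of theca, stroma, endothelium and blood, of which 7 of 8 were in the table, summed to between 1.29 and 5.92 RPKM, with Pecam1 the one gene of at least 1 RPKM. Both somatic sums were higher at 60–65 than at 10–30 µm, as the members were. Cyp19a1 made up 0.161 and 0.159 RPKM of the granulosa sum at 10–30 µm, 1.25 and 1.04 at 60–65 µm and 2.53 in GV oocytes, and the other 5 genes summed to 0.381 and 0.435, 1.15 and 1.06, and 0.596 RPKM. The rise of the second sum is that of Pecam1, which is at 0.567 and 0.531 RPKM at 10–30 µm and 4.70 and 4.19 at 60–65 µm, while the other 6 of its genes summed to 1.03 and 0.755 and to 0.366 and 0.465 RPKM. The part of such markers in the results was not tested. Both somatic sums lay below the lowest level of any member, 9.41 RPKM for Fbxw22 in library B of 10–30 µm. Such a comparison does not measure how much somatic RNA adds to a member.

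**Figure D1:**
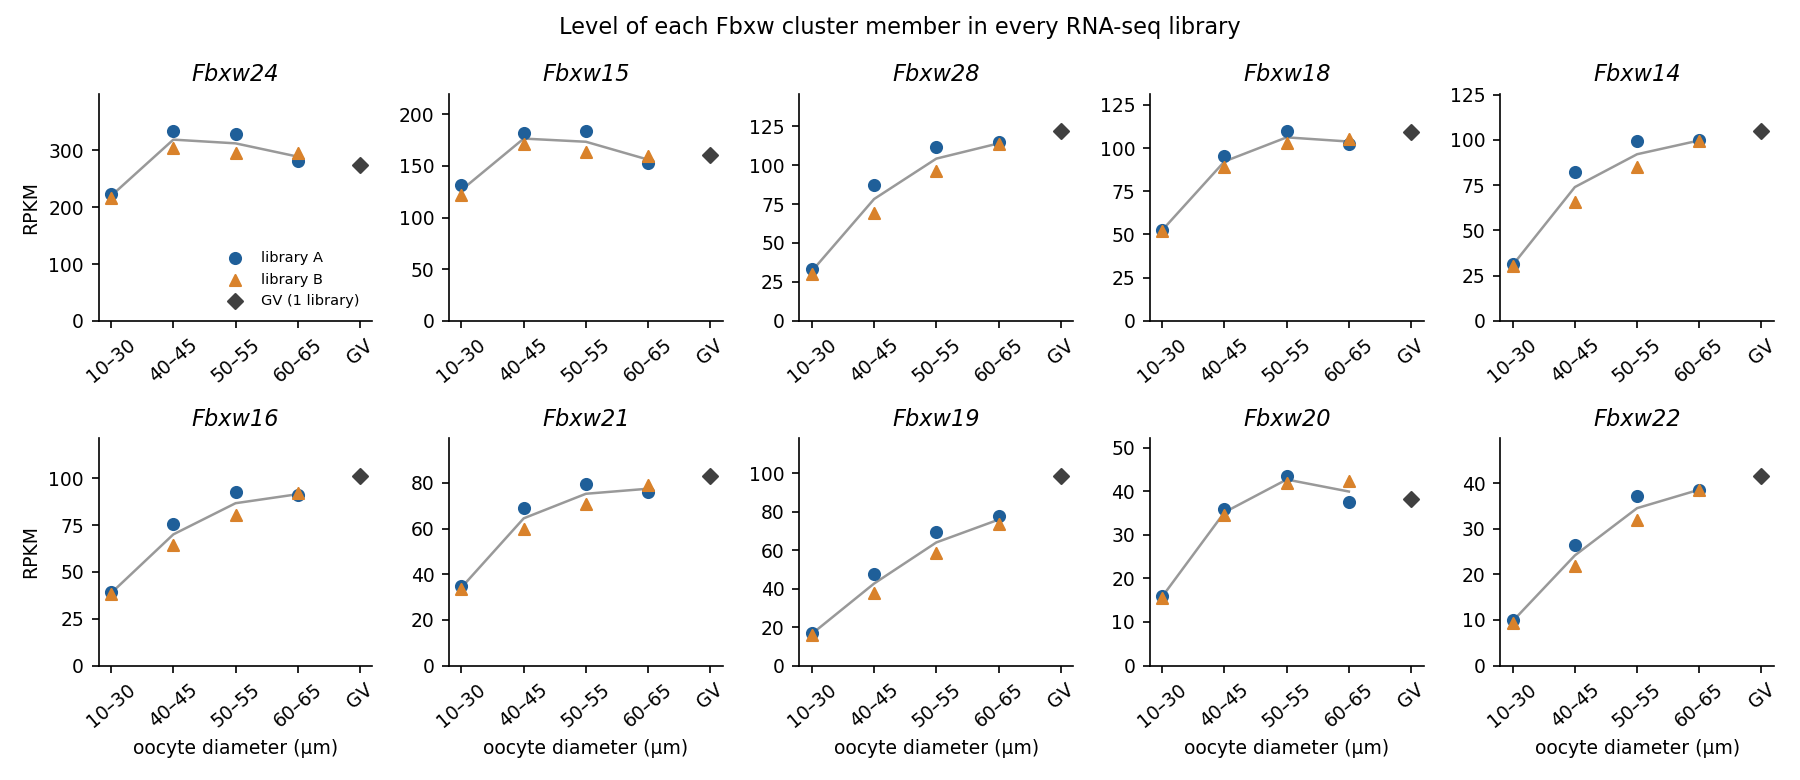
RPKM (linear axes that start at 0 and differ between panels) of the 10 members against oocyte size class, with library A, library B and the single GV library as points and the class mean as a line. Fbxw24 and Fbxw15 were highest at 40–45 and 50–55 µm, whereas 6 members, Fbxw19 and Fbxw22 among them, had their highest class mean at 60–65 µm.

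Fbxw24 (chr9:109601117-109626059, 10 exons) was the most abundant member in every library. It measured 223 and 216 RPKM at 10–30 µm, 333 and 304 at 40–45 µm, 328 and 296 at 50–55 µm, 282 and 296 at 60–65 µm, and 275 in GV oocytes. The libraries of 10–30 µm lay below all others, and those of 60–65 µm lay below those of 40–45 µm without overlap. At 60–65 µm it ranked 19 among all genes of the table.

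Fbxw15 (chr9:109552604-109568262, 10 exons) came second. Its values were 131 and 122 RPKM at 10–30 µm, 182 and 171 at 40–45 µm, 183 and 163 at 50–55 µm, 153 and 159 at 60–65 µm, and 160.2 in GV oocytes. As in Fbxw24, the smallest oocytes were lowest and the highest values were in the middle classes.

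Fbxw19 (chr9:109478570-109495875, 10 exons) began low and had the largest fold rise. It measured 17.0 and 15.9 RPKM at 10–30 µm, 47.3 and 37.9 at 40–45 µm, 69.3 and 58.6 at 50–55 µm, 77.9 and 73.7 at 60–65 µm, and 98.5 in GV oocytes. No library of a class overlapped with one of the class before it. Fbxw22 (chr9:109378411-109404296, 10 exons), the lowest member at 10–30 µm, measured 10.0 and 9.41, then 26.5 and 21.8, 37.1 and 32, 38.5 and 38.6, and 41.6 RPKM in GV oocytes. Its libraries likewise did not overlap between neighbouring classes.

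Fbxw14 (chr9:109270836-109287676, 10 exons) and Fbxw28 (chr9:109322886-109339659, 11 exons), which share reads, followed the same course. Fbxw14 went from 31.5 and 30.1 RPKM at 10–30 µm through 82.2 and 65.7, then 99.3 and 84.9, to 100.2 and 99.3 at 60–65 µm and 105 in GV oocytes. Fbxw28 went from 33.6 and 30.4 through 86.9 and 69.5, then 112 and 96.4, to 114 and 113 and 122 in GV oocytes. The ratio of Fbxw14 to Fbxw28 fell between 0.861 and 0.992 in the 9 libraries. Their reads added up, which is the same however shared reads were split between the pair, made up 0.0127% and 0.0118% of the library total at 10–30 µm, 0.0330% and 0.0264% at 40–45 µm, 0.0412% and 0.0353% at 50–55 µm, 0.0418% and 0.0414% at 60–65 µm, and 0.0441% in GV oocytes.

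Fbxw18 (chr9:109676734-109702700, 10 exons) measured 52.7 and 52.3 RPKM at 10–30 µm, 95.2 and 89.2 at 40–45 µm, 109.6 and 103 at 50–55 µm, 102 and 105 at 60–65 µm, and 109.5 in GV oocytes. Fbxw16 (chr9:109432319-109449140, 9 exons) measured 39.1 and 38.4, then 75.7 and 64.5, 92.8 and 80.7, 91.2 and 92.0, and 101 in GV oocytes. Both reached their level by 50–55 µm, where the libraries overlapped those of 60–65 µm. Fbxw21 (chr9:109139454-109162041, 10 exons) measured 34.7 and 33.7, then 69.0 and 60.0, 79.5 and 70.9, 75.9 and 79.0, and 83.0 RPKM. Fbxw20 (chr9:109217432-109234754, 10 exons) measured 16 and 15.6, then 35.9 and 34.4, 43.5 and 41.9, 37.4 and 42.4, and 38.2 RPKM. In both, the 10–30 µm libraries stood apart below all others and the 50–55 and 60–65 µm classes overlapped.

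At 60–65 µm the order by mean RPKM was Fbxw24 (289 ± 10.2, SD, n = 2), Fbxw15 (156 ± 4.74), Fbxw28 (114 ± 0.866), Fbxw18 (104 ± 2.38), Fbxw14 (99.7 ± 0.626), Fbxw16 (91.6 ± 0.571), Fbxw21 (77.4 ± 2.16), Fbxw19 (75.8 ± 2.93), Fbxw20 (39.9 ± 3.49) and Fbxw22 (38.6 ± 0.0516). Between neighbours in this order, the libraries of Fbxw21 and Fbxw19 and those of Fbxw20 and Fbxw22 overlapped, and the order of these pairs is not settled by the data. The places of Fbxw28 and Fbxw14, and of Fbxw18 between them, also rest on the uncertain split of the reads that Fbxw14 and Fbxw28 share. The distance between the members shrank with growth. The highest member stood 22.2 and 23.0 times above the lowest at 10–30 µm, 12.6 and 13.9 times at 40–45 µm, 8.86 and 9.26 times at 50–55 µm, 7.52 and 7.67 times at 60–65 µm, and 7.19 times in GV oocytes. Fbxw24 and Fbxw15 together made up 60.2% and 60.0% of the summed RPKM of the members at 10–30 µm, and 40.5% and 41.4% at 60–65 µm. The sum itself was 589.6 and 564 RPKM at 10–30 µm, 1034 and 918 at 40–45 µm, 1155 and 1027 at 50–55 µm, 1072 and 1099 at 60–65 µm, and 1134 in GV oocytes.

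The first comparison asked which members changed between the smallest growing oocytes and oocytes at the beginning of the phase in which methylation is gained. From 10–30 to 40–45 µm, 10 of 10 members rose (limma on log2 of RPKM plus 0.1, Benjamini-Hochberg adjusted p under 0.05), against 13.6% of all 10518 genes tested that were higher and 9.57% that were lower. The median log2 change of the members was 1.10, and that of all genes 0.00272. The largest changes were those of Fbxw19, 1.44 ± 0.15 (SE) with adjusted p = 0.000887 in limma, Fbxw22 with 1.37 and Fbxw28 with 1.36. Fbxw14 rose by 1.33, Fbxw20 by 1.22, Fbxw21 by 0.99, Fbxw16 by 0.93 and Fbxw18 by 0.89. The smallest changes were 0.61 ± 0.12 for Fbxw24 (limma adjusted p = 0.00911) and 0.55 ± 0.12 for Fbxw15 (limma adjusted p = 0.0130), and both missed the threshold when library A of 40–45 µm was left out (limma adjusted p = 0.0594 and 0.0786). A bulk value relative to the library total does not tell more molecules of a transcript per oocyte from a smaller share of other RNA.

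From 40–45 to 50–55 µm, 0 of 10 members passed the threshold, against 5.50% of genes higher and 3.52% lower, and 4 members were higher at an unadjusted p under 0.05 in limma, as 3033 of 10518 genes were higher or lower. Without library B of 40–45 µm or library A of 50–55 µm, limma called 0 genes in either direction and 0 members. The closest were Fbxw19, with a log2 change of 0.55 ± 0.15 (limma adjusted p = 0.0520), and Fbxw22, with 0.48 ± 0.13 (limma adjusted p = 0.0604). Both passed when any of 3 libraries was left out, namely 10–30 µm A, 10–30 µm B and 40–45 µm A, with limma adjusted p from 0.0338 to 0.0439. Fbxw24 and Fbxw15 were at −0.07 and −0.06, with 95% intervals of −0.34 to 0.20 and −0.33 to 0.21. Library A was above library B for 10 of 10 members in the classes of 10–30, 40–45 and 50–55 µm, by up to 1.25 times, and for 3 of 10 at 60–65 µm. Among the 1928 genes of at least 10 RPKM, A was above B in 47.7%, 50.1%, 60.7% and 50.8%. With a replicate block in the fit, 3 members were called higher in this step, as were 1015 of 10518 genes, while 861 genes were lower. The 3 were Fbxw19, Fbxw22 and Fbxw28, with limma adjusted p = 0.00962, 0.0177 and 0.0413.

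From 50–55 to 60–65 µm, limma called 0 of 10 members and 0% of genes in either direction. No member reached an unadjusted p under 0.05, as 1440 of 10518 genes did, and the members' changes lay between −0.18 (Fbxw15) and 0.22 (Fbxw19) with a median of 0.03. The 95% interval for Fbxw19 was −0.12 to 0.55. Over both later steps (40–45 to 60–65 µm, a comparison added after the values were seen), 3 of 10 members rose, against 18.3% of genes higher and 19.1% lower. They were Fbxw19 (0.77 ± 0.15, limma adjusted p = 0.00506), Fbxw22 (0.61 ± 0.13, 0.00942) and Fbxw28 (0.48 ± 0.15, 0.0340). Fbxw14, which shares reads with Fbxw28, changed by 0.37 ± 0.14 and did not pass (limma adjusted p = 0.0726). The count may thus depend on how reads shared by Fbxw14 and Fbxw28 were split, which was not tested. Which members passed changed when 1 library of 40–45 or 60–65 µm was left out. Without library B of 40–45 µm the log2 change was 0.45 for Fbxw22 and 0.29 for Fbxw28. Without library A of 40–45 µm it was 0.56 for Fbxw14 and 0.46 for Fbxw16, against 0.37 and 0.32 with all libraries. Fbxw24 and Fbxw15 had negative changes, −0.21 and −0.25, that did not pass (limma adjusted p = 0.191 and 0.132).

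Across the whole of growth, from 10–30 to 60–65 µm, 10 of 10 members rose, where 31.9% of all genes were higher and 31.5% lower. The log2 change was 2.20 ± 0.15 for Fbxw19, a 4.61-fold rise in fitted level (limma adjusted p = 1.13e-05), 1.98 ± 0.13 for Fbxw22, 1.84 ± 0.15 for Fbxw28 and 1.70 ± 0.14 for Fbxw14. Fbxw20 (1.34), Fbxw16 (1.25), Fbxw21 (1.18) and Fbxw18 (0.99) followed. Fbxw24 changed by 0.40 ± 0.12 (limma adjusted p = 0.0168) and Fbxw15 by 0.31 ± 0.12 (limma adjusted p = 0.0467). The 95% interval for Fbxw19, 1.87 to 2.54, lay above those of Fbxw24, 0.13 to 0.67, and Fbxw15, 0.04 to 0.58, and the difference between members was not tested. The call for Fbxw24 was lost without library B of 10–30 µm, library A of 60–65 µm or library B of 60–65 µm, with limma adjusted p from 0.0541 to 0.0999. The call for Fbxw15 was lost without these and without either library of 50–55 µm, with limma adjusted p from 0.0607 to 0.194.

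**Figure D2:**
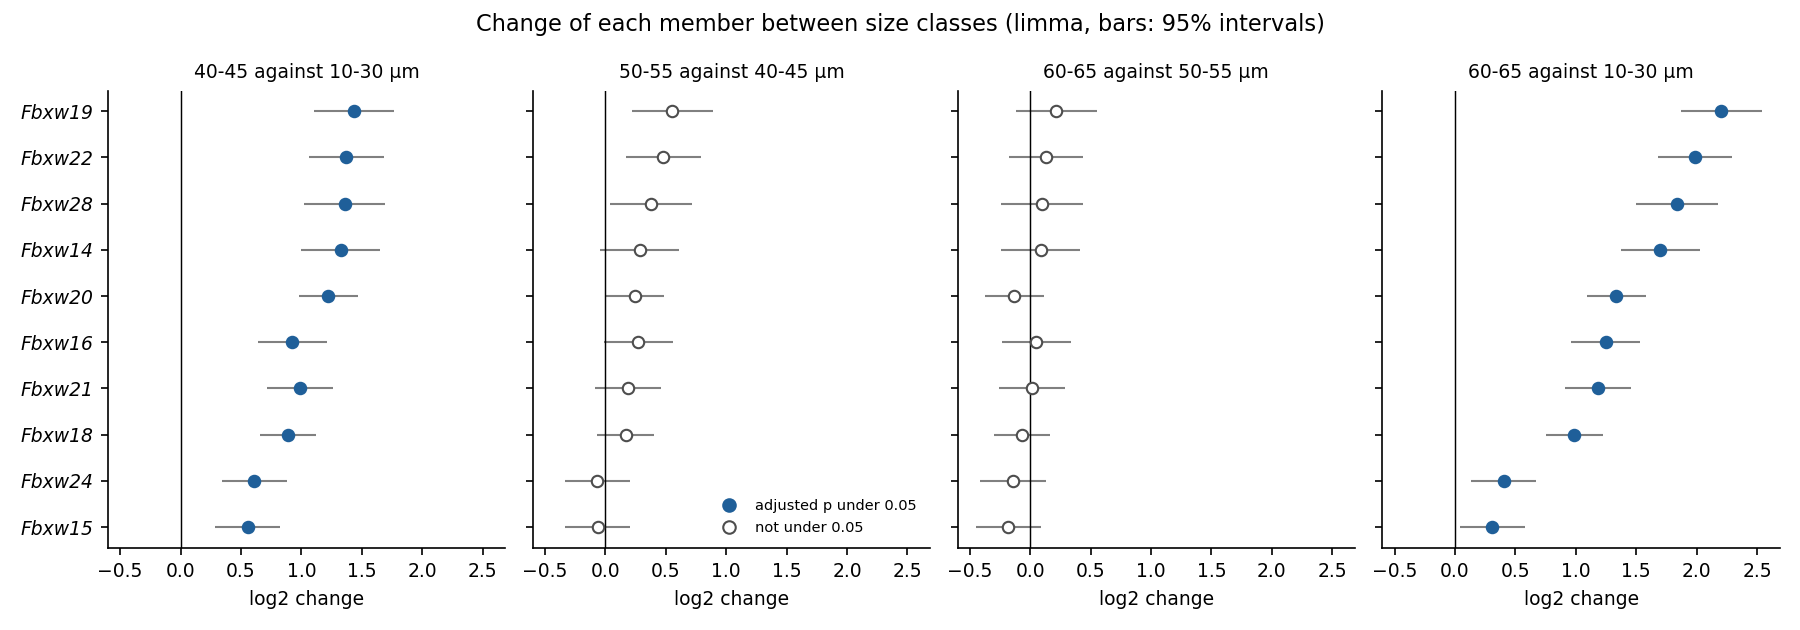
Log2 change of each member (points, filled where the limma adjusted p was under 0.05) with 95% intervals in 4 comparisons of size classes. All 10 points are filled in the first step and across growth, 0 in the other steps, and Fbxw24 and Fbxw15 have the smallest changes across growth, 0.40 and 0.31.

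In GV oocytes, of which there was 1 library and hence no test, 8 of 10 members were above both 60–65 µm libraries, against 35.0% of 10496 genes, and 1 was below both, against 46.2%. Fbxw19 differed most, at 98.5 RPKM against a mean of 75.8, a ratio of 1.30. The ratio was between 1.03 and 1.11 for Fbxw14, Fbxw15, Fbxw16, Fbxw18, Fbxw21, Fbxw22 and Fbxw28, and 0.958 for Fbxw20, whose libraries of 60–65 µm spanned the GV value. Fbxw24 was the member below both, at a ratio of 0.951.

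Other Fbxw genes at the same place followed a like course. Fbxw13, between Fbxw21 and Fbxw20, went from 20.9 and 20.9 RPKM at 10–30 µm to 44.0 and 46.5 at 60–65 µm, a log2 change of 1.12 ± 0.12 (limma adjusted p = 9.63e-05). Fbxw26, just beyond Fbxw18, went from 29.8 and 27.8 to 47.0 and 46.6 (0.71 ± 0.12, limma adjusted p = 0.000959). The gene listed as CT025661.1 lies where the GENCODE annotation has Fbxw25 and went from 8.16 and 6.56 to 10.5 and 11.2 RPKM (0.57 ± 0.15, limma adjusted p = 0.0118). Of the 9 tested Fbxw-type genes located elsewhere in the genome, Btrc included, 2 rose and 3 fell between 10–30 and 60–65 µm, shares near those of all genes (31.9% higher and 31.5% lower). Fbxw4 rose from 1.72 and 1.65 to 7.42 and 6.43 RPKM, and Btrc, which recognises phosphorylated targets such as beta-catenin, from 4.96 and 5.43 to 9.48 and 8.32. Fbxw7, known for the turnover of cyclin E and Myc, fell from 2.13 and 2.64 to 1.36 and 1.49 RPKM, and Fbxw2 and Fbxw5 fell as well. The 10 listed members stood at 38.6 RPKM or more at 60–65 µm, and the Fbxw-type genes elsewhere at 14.7 (Fbxw8) or less. CT025661.1, within the cluster but not a listed member, stood at 10.8 RPKM, so the contrast does not hold for every gene at this place.

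Among the genes within 200 kb of the cluster or inside it, 18 in the table beside the members, 10 could be tested. Between 10–30 and 60–65 µm 5 rose and 4 fell, against 31.9% and 31.5% of all genes. Those that rose were the Fbxw genes Fbxw13, CT025661.1 and Fbxw26, and the more distant Plxnb1, a semaphorin receptor (0.712 and 0.965 to 1.93 and 1.69 RPKM), and Cdc25a, a phosphatase that activates cyclin-dependent kinases (7.04 and 9.60 to 15.2 and 15 RPKM). Uqcrc1, Atrip, Ccdc72 and Nme6 fell.

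The partners of F-box proteins in the SCF ligase and the enzymes that act with it are given for comparison. Of 15 listed genes 14 were in the table and 13 tested, and from 10–30 to 60–65 µm 3 rose and 5 fell, against 31.9% and 31.5% of all genes, with a median log2 change of −0.29. In the first step 1 of 13 rose, against 13.6%. The scaffold Cul1 rose from 61.2 and 56.6 to 88.5 and 91.8 RPKM (0.62 ± 0.14, limma adjusted p = 0.00410), as did Uba3, a subunit of the enzyme that activates Nedd8, and Cand1, which exchanges F-box subunits on Cul1. The RING subunit Rbx1 fell from 18.9 and 14.4 to 10.3 and 10.3 RPKM (−0.67 ± 0.15, limma adjusted p = 0.00483). Nedd8 itself, the modifier that activates cullins, the E2 enzymes Cdc34 and Ube2d3, and Cops5, which removes Nedd8, also fell. The adaptor Skp1a, at 282 and 269 RPKM in the smallest oocytes and 253 and 256 at 60–65 µm, did not pass (−0.11 ± 0.14, limma adjusted p = 0.531). Its level was near that of Fbxw24 and below the sum of the members.

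The profiles of the members across the 8 growing libraries were alike. Pearson's r of log2 values ran from 0.730 for Fbxw15 and Fbxw19 to 0.999 for Fbxw16 and Fbxw28 with a median of 0.981 over the 45 pairs, a description over libraries that all members share. Of 1917 other genes of at least 10 RPKM at 60–65 µm, the ones most like the mean of the members were Fbxw13 (r = 0.998), Me1 (0.996), D030018L15Rik (0.995), Dcaf8 (0.994) and Aspm (0.994). The likeness is one of shape and not of size, since Dcaf8 went only from 52.8 and 54.1 to 65.3 and 63.9 RPKM.

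In the PBAT library of 60–65 µm oocytes the cluster carried intermediate methylation. Over the 1029 CpG cytosines with at least 5 reads within its 563 kb, the mean was 40.7%, and pooling the 8169 calls gave 39.4% (95% Wilson interval 38.3–40.5%). Such intervals cover counting error only, and calls on 1 read are not independent of each other. The 200 kb before and after the cluster had means of 29.0% and 27.1%, and all such positions of chromosomes 1 to 19 and X a mean of 22.2%. The cluster holds few CpGs, 6.12 per kb against 8.84 per kb on chromosome 9.

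The signal was uneven along the cluster. In 56 windows of 10 kb the share of methylated calls ran from 8.77% to 78.8% with a median of 30.9%, and it was 50% or more in 10 windows and under 20% in 13. The gaps with the highest means lay in the second part of the cluster. The gap between Fbxw15 and Fbxw24 had a mean of 75.9% over 82 positions, and that between Fbxw16 and Fbxw19 63.7% over 117. The 5 gaps from Fbxw21 to Fbxw16 had means between 24.7% and 32%.

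**Figure D3:**
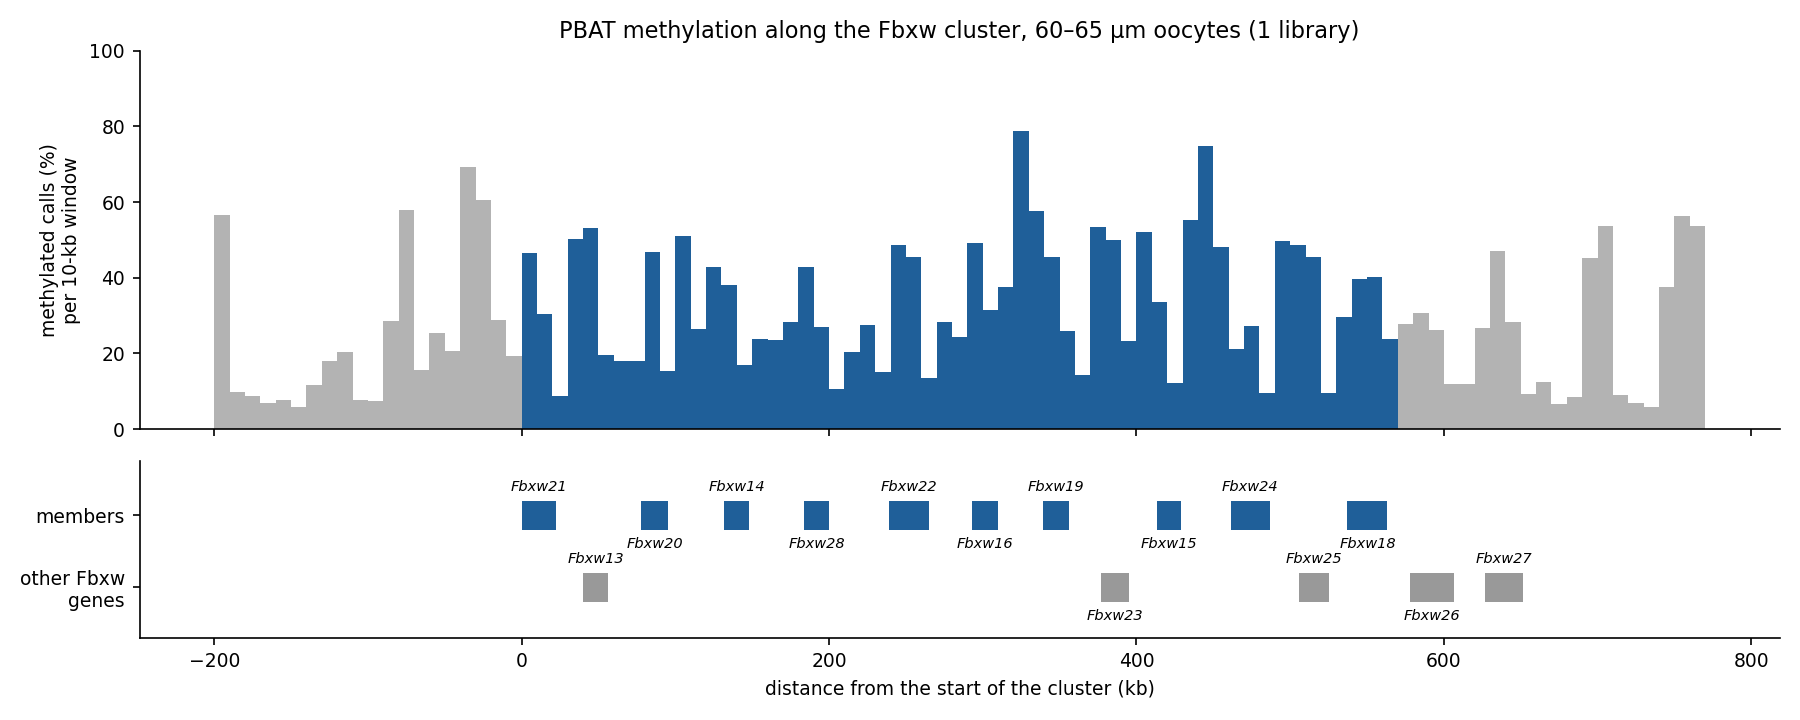
Percent of methylated PBAT calls per 10-kb window (upper panel, windows that begin inside the cluster in blue, 200 kb on either side in grey) against distance from the start of the cluster, with member genes and other Fbxw genes drawn to scale below. Windows alternate between low and high values, with the highest, 78.8%, 320 kb from the start.

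Methylation of the member bodies differed by more than the counting error. Since few positions in a body had 5 reads (8 for Fbxw14 to 59 for Fbxw22), the share of all calls is given here with its 95% Wilson interval. It was lowest in Fbxw24, 19.7% (16.5–23.4%, 502 calls), and Fbxw15, 21.8% (17.6–26.7%, 316 calls). These are the members with the highest RNA level. Next came Fbxw20 with 31.0% (27.1–35.2%), Fbxw14 with 32% (26–38.7%), Fbxw28 with 36.2% (30.3–42.6%), Fbxw21 with 36.4% (32.7–40.3%) and Fbxw18 with 38.0% (34.4–41.6%), whose intervals overlap. Fbxw22 reached 42.3% (38.8–45.9%), Fbxw19 43.5% (38.1–49%) and Fbxw16 51.9% (46.2–57.5%, 297 calls). In the mean over positions with at least 5 reads the same 2 members were lowest, Fbxw24 at 21.8% (31 positions) and Fbxw15 at 26.6% (24 positions), and Fbxw16 was highest at 68.8% (17 positions). With at least 10 reads the order differed, with Fbxw21 at 16.3% (5 positions), Fbxw15 at 16.6% (4), Fbxw20 at 19.4% (10) and Fbxw24 at 25% (2). Over the 10 members Spearman's rho between body methylation and RPKM at 60–65 µm was −0.564, a description, as all bodies come from 1 library and differ in depth.

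All bodies combined had 35.4% of 4394 calls methylated (34.0–36.9%), and the gaps between members 39.3% of 10824 (38.4–40.2%). The gaps are not free of genes, as they hold the bodies of Fbxw13 (41.0% of calls), Fbxw23 (47.8%) and Fbxw25 (39.0%). Within the bodies, exons had 30.6% (27.7–33.6%) and introns 36.8% (35.2–38.4%). The mean over positions for the 9 bodies with at least 10 covered positions had a median of 33.0%. Among other genes of at least 4 kb, the median body was 18.7% (18052 genes), 9.63% for those under 1 RPKM, 34.0% for those of 1 to 10 RPKM, and 20.8% for the 330 genes of 30 RPKM or more. The part of these 330 genes with a lower body ran from 53.0% for Fbxw24 and 66.4% for Fbxw15 to 100% for Fbxw16. The value used for Fbxw16 here, 68.8%, rests on 17 positions, and over all calls the body was at 51.9%. The other Fbxw genes of the region ranged from 27.5% of calls in Fbxw26 to 47.8% in Fbxw23.

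The starts were nearly free of methylation. Within 1000 bases on either side of the 10 starts, 3.47% of 259 calls were methylated (1.84–6.47%), and between 250 bases before and 50 after, 0% of 44 (up to 8.03%). The latter calls come from Fbxw21, Fbxw22, Fbxw15, Fbxw24 and Fbxw18, and the other 5 members had 0 calls in this window. By member the first share was highest in Fbxw20, 10.0% of 30 calls (3.46–25.6%), and it was 0% for Fbxw28, Fbxw19, Fbxw15 and Fbxw18, with upper limits of 32.4%, 18.4%, 14.3% and 9.41%. Low values at the start are not particular to the cluster. Of 2186 other genes of at least 4 kb with as few listed positions near the start (4 to 23, at least 8 calls), 55.5% lay at or below 10.0%, and so did 54.5% of the 55 among them with 10 RPKM or more.

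**Figure D4:**
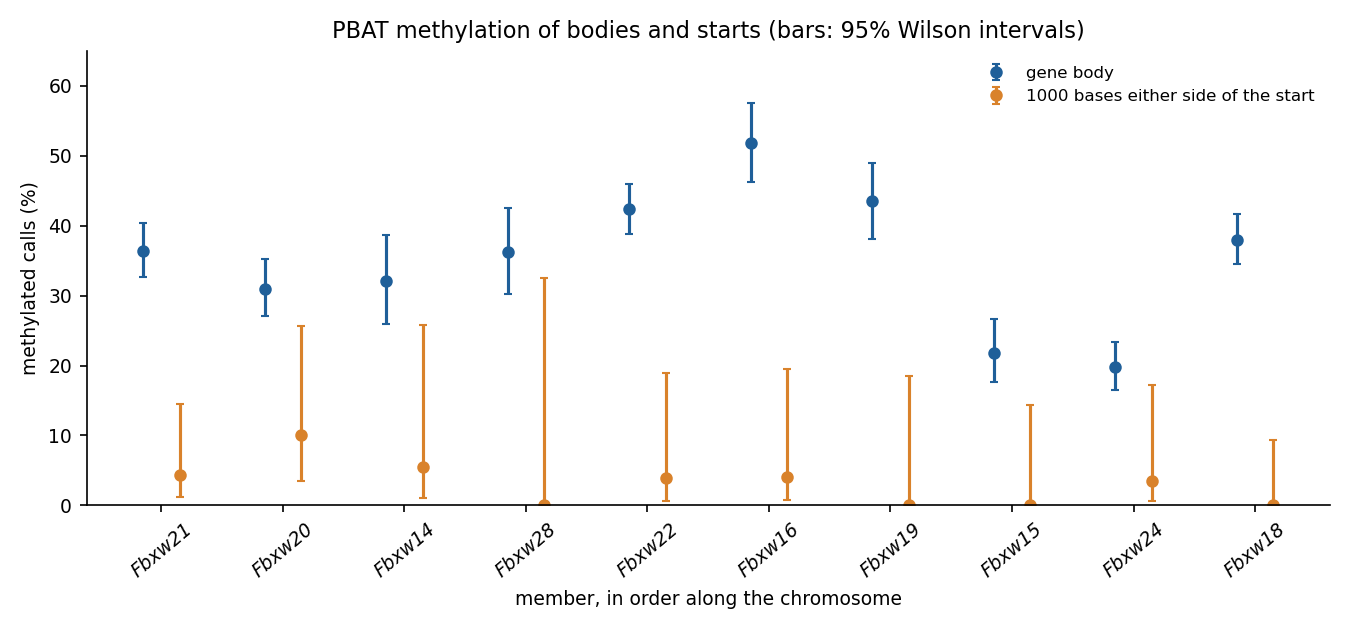
Percent of methylated PBAT calls in the body of each member (blue) and within 1000 bases of its start (orange), in order along the chromosome, with 95% Wilson intervals. Bodies range from 19.7% (Fbxw24) to 51.9% (Fbxw16), and starts from 0% to 10.0% (Fbxw20).

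RRBS covered few positions here. Between 25 and 39 positions per library had at least 5 reads, 18 of them in all 6 libraries. Their mean methylation was 19.8% and 13.1% in the libraries of 40–45 µm, 26.6% and 32.2% at 50–55 µm, and 33.0% and 27.5% at 60–65 µm. Over the 18 shared positions it was 18.0% and 8.79%, then 22.3% and 36.8%, then 30.3% and 27.9%. In both sets the 40–45 µm libraries were below all others, while 50–55 and 60–65 µm overlapped. With other ways of taking positions the 40–45 µm libraries were still lowest, at 27.5% and 14.5% with a minimum of 1 read, 19.7% and 13.2% with 10 reads and 10.9% and 6.29% with pooled calls. The order of the later classes depended on the choice. At a minimum of 1 read the means were 54.7% and 39.8% at 50–55 µm, above 32.4% and 37.2% at 60–65 µm, while pooled calls gave 20.2% and 23.1% against 24.3% and 20.3%, which overlap. A two-sided permutation of 2 libraries per class cannot go below p = 0.333, and no test was made. Most of the positions lie between members, in short runs on the same fragments, so they say little on the gene bodies.

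Single positions differed in course (they were chosen after their values were seen). At a cytosine within Fbxw21, at chr9:109149943, 4.55% and 4.73% of calls were methylated at 40–45 µm, 8.93% and 23.1% at 50–55 µm, and 40.0% and 43.8% at 60–65 µm, from 40 to 186 calls each. A position 793 bases upstream of the start of Fbxw19, at chr9:109496668, stayed low with 0.541% and 0%, then 1.5% and 10.0%, then 2.68% and 0%, from 110 to 342 calls.

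**Figure D5:**
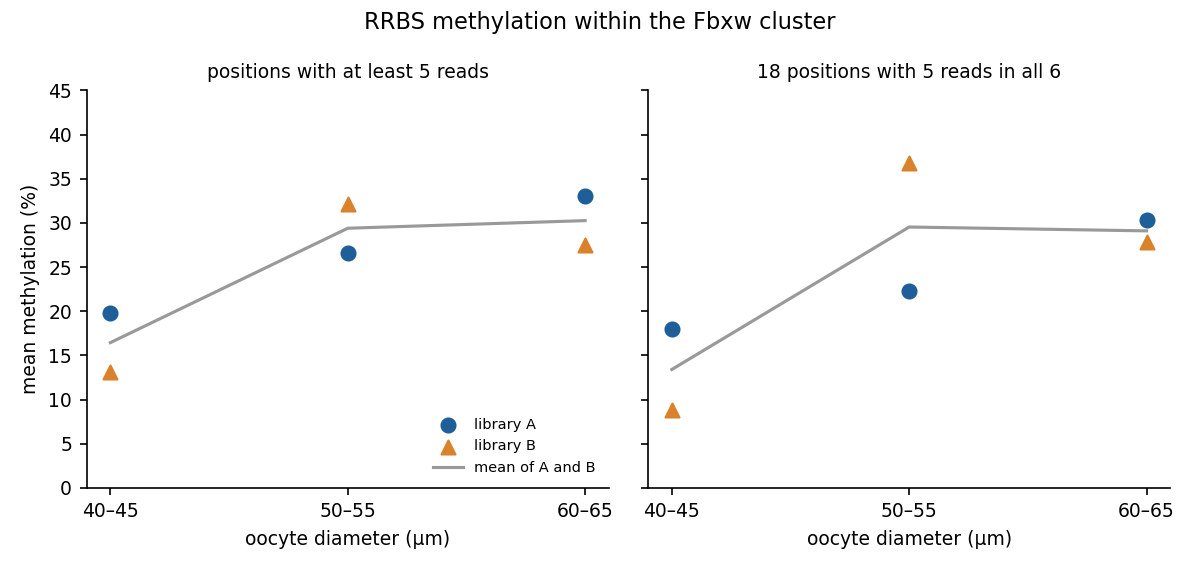
Mean RRBS methylation (%) of positions within the cluster in each library by size class, for all positions with at least 5 reads (left) and for the 18 positions with 5 reads in all 6 libraries (right); the line joins the class means. The 40–45 µm libraries, 19.8% and 13.1% on the left, are the lowest in both panels.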

How the data were processed

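The members and gene lists were chosen with earlier results of these data known. The authors trimmed reads with Trim Galore (0.3.5 and 0.2.8 per the labels), aligned RNA-seq reads with TopHat2 2.0.9 and bisulphite reads with Bismark (0.14.0 and 0.10.0) to GRCm38. The deposited expression table holds RPKM; which program made it is not given in the sources used here. For each CpG cytosine the authors deposited the percent methylated and the counts of methylated and unmethylated calls, with strands apart; the percent was computed again from these counts. Depth was 99039028 calls in PBAT and 30000113 to 57319823 in RRBS. Since the table holds RPKM, limma 3.58.1 (R 4.3.3) with a variance trend was used on log2 of RPKM plus 0.1, over genes that reached 0.5 RPKM in 2 or more of 8 growing libraries, scaled by a trimmed mean (30% by ratio, 5% by level; factors 0.951 to 1.05), in 1 fit with a mean per class. The GV column was left out of the fit. The fit was tested on simulated data. Named were all members, other Fbxw genes and Btrc, genes within 200 kb, an SCF list, and the 5 genes most like the members. Shared windows, coding identity and motifs come from GRCm38 with GENCODE M21 and RefSeq, by Python 3.11.15. Amino-acid identity was planned, and coding-sequence identity was used in its place. Alternatives were the pseudocount, filter, scaling, trend, samples in the fit, coverage minimum, averaging, strands and repeated windows.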

Additional observations from a re-analysis of the deposited data

How the results depend on the processing

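The counts of members called from 10–30 to 40–45 µm and to 60–65 µm stayed at 8 to 10 of 10 under all alternatives, and 139 of 150 refits of the members' change across growth kept their call; the other 11 concern Fbxw15 and Fbxw24, which kept their direction. No label says that libraries of the same letter share a batch. Between the classes of 10–30, 40–45 and 50–55 µm the difference A minus B correlated with r = 0.60, 0.59 and 0.67 over 10518 genes. With 60–65 µm r ran from −0.23 to 0.11. With a replicate block the members called higher from 40–45 to 50–55 µm were 3 (main 0), with 1015 of 10518 genes higher (main 578). From 40–45 to 60–65 µm they were 5 (main 3), with 2378 genes higher (main 1930). No other count of members moved by over 1.5 times with the block. Of all genes, the block called 154 higher and 79 lower from 50–55 to 60–65 µm (main 0). Without library scaling the members called higher from 40–45 to 50–55 µm and from 40–45 to 60–65 µm were 2 and 5, with 679 and 2294 of 10518 genes higher. Without a filter on low values 1 member was called from 40–45 to 60–65 µm, with 2016 of 25965 genes higher. Leaving out 1 library also changed which members were called in these steps. Without library A of 40–45 µm the log2 change from 40–45 to 50–55 µm was 0.74 for Fbxw19 (main 0.55) and 0.65 for Fbxw22 (main 0.48). Without library B of 40–45 µm that from 40–45 to 60–65 µm was 0.45 for Fbxw22 (main 0.61) and 0.29 for Fbxw28 (main 0.48). PBAT methylation of the cluster was 37.0%, 39.3% and 36.0% at coverage minimums of 1, 3 and 10 reads, 39.4% with pooled calls, 39.3% with both strands of a CpG summed, 43.2% without repeated 100-base windows and 38.2% with all calls pooled, a setting chosen after seeing the data. RRBS class means moved from 16.4% to 8.60% (40–45 µm), 29.4% to 21.7% (50–55 µm) and 30.3% to 22.3% (60–65 µm) with pooled calls; at a minimum of 1 read they were 47.3% at 50–55 µm and 34.8% at 60–65 µm, and at 10 reads 25% at 60–65 µm. With 1 replicate left out they were 13.1% to 19.8%, 26.6% to 32.2% and 27.5% to 33.0%. The causes of these shifts were not tested. PBAT depth limits single bodies: at 10 reads Fbxw14 and Fbxw19 had no position left.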
